A study of Mus musculus with 32 samples.

Results

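The 198 genes described here are the long intergenic noncoding RNAs (lincRNAs) that mouse striatum expresses at a countable level. They are the genes typed as lincRNA in GENCODE M21 that lie outside the X and Y chromosomes and that averaged at least 2 CPM (the reads of the gene per 1000000 counted reads) over 32 mice. Of the 5535 lincRNA genes in the deposited count table, 2982 had at least 1 read in some mouse and 207 reached this level, of which 9 lie on the X chromosome and were left out. The rule used only the mean level of each gene and no difference between genotypes. Just inside it lay Gm32618 at 2.01 CPM and C230014O12Rik at 2.02 CPM, and just outside it lay Gm20063 and 4732487G21Rik, both at 1.97 CPM.

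The striata came from mice of 6 months of age on a C57BL/6J background, bred as littermates, with 8 mice in each of 4 genotypes. Wild-type mice have intact Htt and Msh3 genes. The zQ175 mice carry a highly expanded CAG repeat knocked into the mouse Htt gene, and model Huntington's disease. Msh3-/- mice are homozygous for a CRISPR-made deletion in Msh3, a mismatch repair gene, which comes from a single knockout line and is present in every cell, and zQ175:Msh3-/- mice carry both changes. Each group had 4 males and 4 females apart from zQ175:Msh3-/-, with 5 males and 3 females. Whole-gene Msh3 counts were 24.5 ± 1.61 CPM (SD, n = 8) in wild-type and 24.4 ± 1.53 CPM in zQ175 mice, against 11.8 ± 1.2 CPM in Msh3-/- and 12.9 ± 1.15 CPM in zQ175:Msh3-/- mice. Such counts also cover exons outside the deletion, and levels by exon were not measured here.

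LincRNAs are transcribed by RNA polymerase II, and most are capped, spliced and polyadenylated like messenger RNAs but hold no long open reading frame. Some work in the nucleus, as scaffolds of nuclear bodies or at the locus that makes them, some act in the cytoplasm by binding proteins or miRNAs, and others matter mainly because miRNAs or small nucleolar RNAs (snoRNAs) are cut out of them. Many are more restricted to particular cell types than messenger RNAs are, and in the striatum, where most neurons are GABAergic spiny projection neurons, few have a described function.

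Promoter sequence shows which letters stand at the starts of some of the transcripts that changed in zQ175 striatum. Of the 198 lincRNAs, 90 were matched by symbol to the RefSeq promoter sequences of GRCm38.p6, which run from 250 bases before to 50 bases after a start site, and for 68 of them that start lay within 500 bases of the GENCODE start. The 6 motifs were searched on both strands, and none of them contains another: the cyclic AMP response element TGACGTCA, the AP-1 site TGACTCA, the GC box GGGCGG, the CCAAT box CCAAT, the E-box CACGTG and the TATA box TATAAA. The response element was in 6 of the 68 promoters (8.82%) and in 1.79% of all 32851 promoters of that length. The other shares were 5.88% against 5.2% for AP-1, 45.6% against 35.7% for the GC box, 42.6% against 37.4% for the CCAAT box, 13.2% against 7.15% for the E-box and 16.2% against 13.6% for the TATA box. The 68 promoters had a median GC content of 55.2% and a median of 13.5 CG pairs, against 52.7% and 7 over all promoters. The promoters of 6 lincRNAs are shown, those of Gm10754 and AI197445 among the lincRNAs that fell, of Miat, A330049N07Rik and Gm9866 among those that rose, and of Meg3, the most abundant, which was called only in the mice without Msh3. Gm39043 and Gm36737, among the deepest falls, are not among the 68. Matches to the motifs are in capitals and describe letters only, with no measure of binding. Gm10754, A330049N07Rik and Gm9866 hold none of the motifs, AI197445 holds a CCAAT box on each strand, Miat a GC box, and Meg3 the response element, a CCAAT box and a pair of TATA boxes that overlap on opposite strands.
Gm10754, chr10:97967041-97967340, minus strand: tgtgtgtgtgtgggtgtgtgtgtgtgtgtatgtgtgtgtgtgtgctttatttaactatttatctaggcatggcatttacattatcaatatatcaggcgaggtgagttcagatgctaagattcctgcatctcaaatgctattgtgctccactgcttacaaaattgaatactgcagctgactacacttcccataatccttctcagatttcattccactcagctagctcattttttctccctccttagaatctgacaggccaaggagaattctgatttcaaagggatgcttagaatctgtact
AI197445, chr13:107469572-107469871, plus strand: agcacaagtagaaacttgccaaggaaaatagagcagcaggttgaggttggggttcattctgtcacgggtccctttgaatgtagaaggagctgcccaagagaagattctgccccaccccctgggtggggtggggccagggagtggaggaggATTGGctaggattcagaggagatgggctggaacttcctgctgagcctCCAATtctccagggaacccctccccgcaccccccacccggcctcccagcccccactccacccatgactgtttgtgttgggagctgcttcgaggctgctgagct
Miat, chr5:112228899-112229198, minus strand, from a start 447 bases from the GENCODE one: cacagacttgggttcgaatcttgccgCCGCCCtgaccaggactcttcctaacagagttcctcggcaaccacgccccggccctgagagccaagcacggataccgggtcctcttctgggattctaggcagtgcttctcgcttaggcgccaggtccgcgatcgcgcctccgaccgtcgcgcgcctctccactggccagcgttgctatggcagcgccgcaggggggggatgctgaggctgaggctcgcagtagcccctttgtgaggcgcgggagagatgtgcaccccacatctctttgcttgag
A330049N07Rik, chr10:73086656-73086955, minus strand: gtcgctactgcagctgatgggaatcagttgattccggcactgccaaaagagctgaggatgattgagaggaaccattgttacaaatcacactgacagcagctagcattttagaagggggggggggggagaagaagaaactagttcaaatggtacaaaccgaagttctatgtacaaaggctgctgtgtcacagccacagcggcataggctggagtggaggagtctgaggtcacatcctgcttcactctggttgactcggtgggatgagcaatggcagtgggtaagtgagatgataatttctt
Gm9866, chr12:27160467-27160766, minus strand: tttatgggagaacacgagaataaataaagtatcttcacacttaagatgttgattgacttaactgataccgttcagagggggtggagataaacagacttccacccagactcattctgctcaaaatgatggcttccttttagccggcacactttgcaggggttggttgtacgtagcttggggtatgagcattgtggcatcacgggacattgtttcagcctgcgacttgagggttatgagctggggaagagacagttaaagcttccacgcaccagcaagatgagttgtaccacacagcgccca
Meg3, chr12:109540746-109541045, plus strand: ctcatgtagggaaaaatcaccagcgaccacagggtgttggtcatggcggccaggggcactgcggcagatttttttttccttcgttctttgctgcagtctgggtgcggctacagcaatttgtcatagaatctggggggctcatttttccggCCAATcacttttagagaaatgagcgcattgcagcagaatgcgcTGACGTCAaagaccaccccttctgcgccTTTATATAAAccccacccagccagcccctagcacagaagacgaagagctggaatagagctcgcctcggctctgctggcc

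The other sequences that matter here are the mature miRNAs inside these transcripts. Of the 198 lincRNAs, 17 hold 44 annotated entries with a miRNA symbol, a count that holds Mir1839 of 2900076A07Rik more than once. Of these entries, 41 were matched to RefSeq hairpins, every one on the strand of its host, giving 66 mature sequences with 56 different seeds. Mirg, which rose in zQ175 striatum, holds 14 of the miRNA genes and is represented below by miR-134-5p, miR-382-5p and miR-410-3p. A trio of hosts on different chromosomes carry the same miR-9-5p, a miRNA of neural progenitors and neurons, and a pair of hosts carry the same miR-129-5p. C78859 holds miR-138-5p, 6720427I07Rik holds a let-7 cluster, and Meg3 holds miR-770-5p. The seed, bases 2 to 8, is in capitals. The seed of miR-410-3p is shared with miR-344d-3p of A230057D06Rik, and the let-7 members share theirs.
miR-134-5p (Mirg): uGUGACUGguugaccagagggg
miR-382-5p (Mirg): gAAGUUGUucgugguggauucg
miR-410-3p (Mirg): aAUAUAACacagauggccugu
miR-344d-3p (A230057D06Rik): gAUAUAACcacugccagacuga
miR-9-5p (C130071C03Rik, Gm3764 and Mir9-3hg): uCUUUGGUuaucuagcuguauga
miR-129-5p (Gm3294 and Mir670hg): cUUUUUGCggucugggcuugc
miR-138-5p (C78859): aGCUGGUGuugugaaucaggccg
let-7a-5p (6720427I07Rik): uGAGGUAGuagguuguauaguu
let-7d-5p (6720427I07Rik): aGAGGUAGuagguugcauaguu
miR-770-5p (Meg3): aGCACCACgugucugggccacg

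Counted reads came to between 12359347 and 25030335 per mouse, with a median of 16700247, and the median lincRNA had 87.6 reads per mouse. The 198 genes are spread over 19 chromosomes, from 21 on chromosome 7 and 20 on chromosome 5 downwards, and 175 have clone or model symbols and no descriptive name. Their exons cover a median of 3195.5 bases, and 46 have a single exon block. Exon blocks are the exons of all transcripts of a gene, with overlapping ones merged. An overlap with the body of another gene was present for 117 and with an exon of another gene for 78. Since whether reads were counted by strand is not given in the sources used here, reads of these genes and of their overlapping partners may not have been told apart. The median biological coefficient of variation of the lincRNAs was 0.116, against 0.0794 over the 16610 genes tested and 0.0691 over those at 2 CPM or more.

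The levels were very uneven. Meg3 took 36.7% of all reads on the 198 genes, and the first 3, Meg3, Malat1 and 2900097C17Rik, took 73.1%. Per length, in mean TPM (the length-scaled share of all transcripts per 1000000), Meg3, the maternally expressed RNA of the imprinted Dlk1-Dio3 locus, came first at 1560. Then came 2900097C17Rik, the mouse counterpart of the cytoplasmic RNA NORAD that binds Pumilio proteins, at 737 and Malat1, an RNA of nuclear speckles, at 734. These levels lay next to each other, and Malat1 varied widely between mice, from 1216 to 2997 CPM over all groups against 1365 to 1654 CPM for 2900097C17Rik. Neat1, the scaffold of paraspeckles, followed at 140 TPM, and Gm3764, a host of miR-9, at 96.2 TPM. The next were 1700020I14Rik, the Cyrano RNA, at 94.2 TPM, Gm48623 at 89.8 TPM and Pantr1 at 82.8 TPM, and 56 of the 198 genes averaged 10 CPM or more.

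In zQ175 as compared to wild-type striatum, 44 of the 198 lincRNAs changed, 21 of them higher and 23 lower. The falls were deeper than the rises. Gm39043, Gm10754, AI197445 and Gm36737 fell more than 2-fold, and no lincRNA that rose reached 2-fold. A gene was called changed when edgeR's quasi-likelihood test gave a Benjamini-Hochberg adjusted p under 0.05 over all 16610 genes and the fold change was at least 1.2. Of all genes tested, 11.6% were called, 4.7% higher and 6.89% lower, and of the genes at 2 CPM or more 12% were called. For the lincRNAs these shares were 22.2%, 10.6% and 11.6%. By adjusted p alone the lincRNAs stood at 28.3%, between the 26.5% of all genes and the 30.2% of genes at 2 CPM or more. The difference in share was thus much smaller in this comparison without the fold threshold. Over the lincRNAs the median log2 fold change was 0.02, against 0.01 over all genes, and their changes ran from −1.56 to 0.64. When the TPM table was tested by limma in place of the counts, 32 were called higher and 18 lower, so that 64.0% of the calls were rises instead of 47.7%. The median log2 fold change by limma was 0.0674 over all genes and 0.0654 over the lincRNAs, so all genes shifted upwards with this setting. The values of all 8 zQ175 mice lay apart from all 8 wild-type mice for 17 lincRNAs (8.59%), 3 higher and 14 lower, against 6.63% of all genes, 2.02% higher and 4.61% lower, and 7.81% of genes at 2 CPM or more.

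The zQ175 change was measured again in mice that lack Msh3, which belong to neither group of the first comparison. All genotypes were fitted in a single model, so both comparisons share the scaling, the gene filter and the estimate of spread. Between zQ175:Msh3-/- and Msh3-/- mice 44 lincRNAs changed, 24 higher and 20 lower, where 10.6% of all genes changed, 4.68% higher and 5.96% lower. Over the 198 the median log2 fold change was 0.09 here, against 0.01 over all genes, with 133 of them (67.2%) above 0. By adjusted p alone 59 passed (29.8%), against 24.1% of all genes and 27.4% of genes at 2 CPM or more. The groups were apart for 15 lincRNAs (7.58%), 7 higher and 8 lower, for 5.39% of all genes, 1.75% higher and 3.64% lower, and for 6.38% of genes at 2 CPM or more. Of the lincRNAs called in each comparison, 31 were called in both, 70.5% of either list, and all 31 moved the same way. These calls come from the shared model. With only the groups of each comparison fitted, 43 and 42 lincRNAs were called, and the overlap of those lists was not counted. For all genes, 1211 were shared, 62.9% of the first list and 68.5% of the second. Each of the 44 lincRNAs of the first comparison had the same sign in the second. The 21 that rose had a median log2 fold change of 0.39 in the first comparison and 0.42 in the second, and the 23 that fell had −0.61 in both. Between zQ175:Msh3-/- and wild-type mice, which shares groups with both of these, 41 were called (20.7%), 20 higher and 21 lower. Of all genes 12% were called there, 5.5% higher and 6.49% lower. By adjusted p alone 25.8% of the lincRNAs passed, below the 26.9% of all genes and the 30.6% of genes at 2 CPM or more. The groups were apart for 6.57% of the lincRNAs, 6.2% of all genes and 7.31% of genes at 2 CPM or more. Limma on the TPM table gave 33 higher and 15 lower there, so that 68.8% of the calls were rises instead of 48.8%. For zQ175:Msh3-/- against Msh3-/- mice it gave 39 higher and 17 lower, 69.6% rises instead of 54.5%. Over all genes the median log2 fold change by limma was 0.09 in each of these comparisons, against 0.01 by edgeR.

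**Figure D1:**
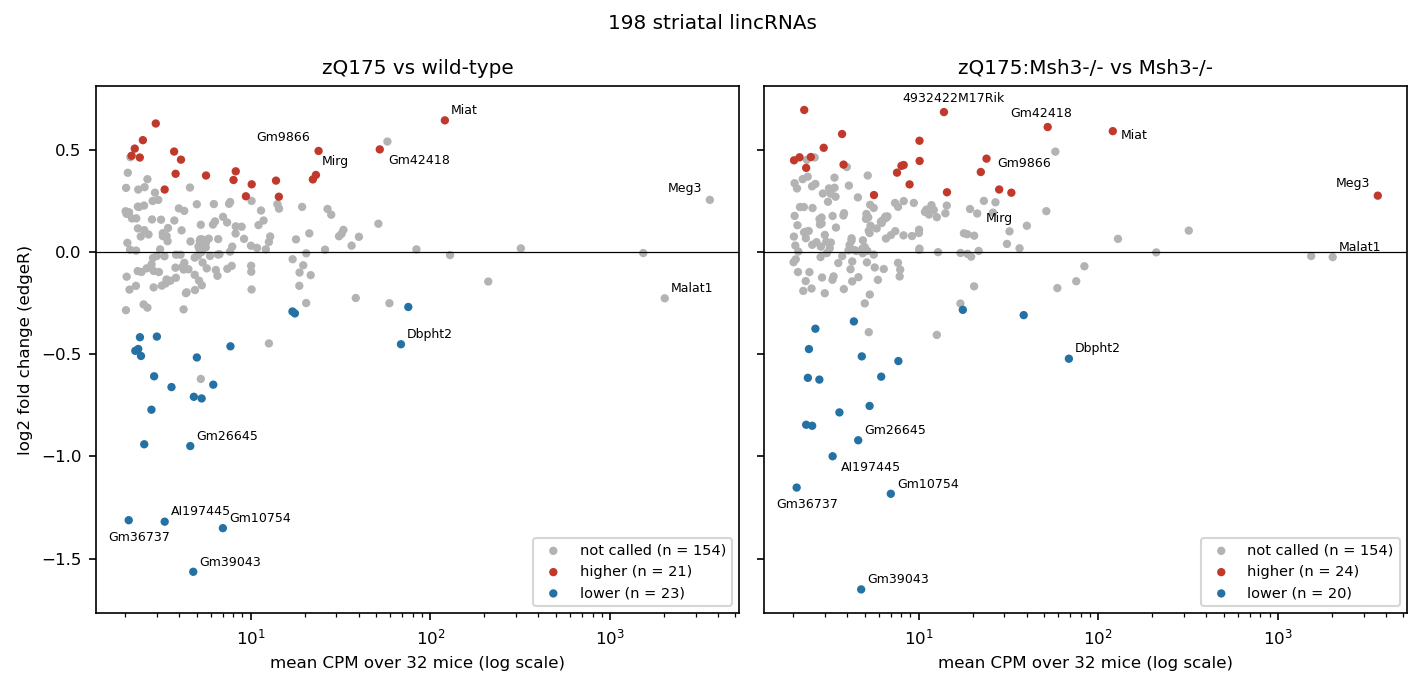
Each point is 1 of the 198 lincRNAs, with its mean CPM over 32 mice on a log axis and its edgeR log2 fold change in zQ175 against wild-type mice (left) and in zQ175:Msh3-/- against Msh3-/- mice (right), coloured by call. The deepest falls, down to −1.56 on the left, are among lincRNAs under 10 CPM, and the rises stay at or below 0.64 there.

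Gm10754 had the smallest adjusted p of the lincRNAs that fell. It is a gene of 5 exon blocks (ENSMUSG00000074776, GRCm38 chr10:97681414-97967090, minus strand), and it overlaps on the other strand the gene Epyc, for a small leucine-rich proteoglycan. Its lowest, median and highest levels over the 8 mice of a genotype, in CPM with edgeR's TMM scaling as for every level per mouse below, were 8.44, 10.8 and 11.7 CPM in wild-type and 3.18, 3.99 and 5.57 CPM in zQ175 mice. In Msh3-/- mice they were 8.38, 9.39 and 10.4 CPM, and in zQ175:Msh3-/- mice 3.39, 4.04 and 5.12 CPM. No zQ175 mouse reached a mouse without the repeat, whatever the Msh3 genotype. The log2 fold change was −1.35 (SE 0.0952, adjusted p = 1.08e-13 by edgeR), a 2.55-fold fall, and −1.18 without Msh3. Epyc, at a mean of only 1.25 CPM, changed by −1.32 (adjusted p = 5.41e-07 by edgeR).

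Gm39043 had the largest change of the 198. It lies at chr7:83814707-83838345 on the plus strand, 19827 bases from Cfap161, a gene of motile cilia. Levels ran from 5.87 over a median of 7.63 to 11.2 CPM in wild-type mice and from 2.01 over 2.53 to 3.23 CPM in zQ175 mice. Without Msh3 the medians were 6.88 and 2.11 CPM, and again the groups were apart. The fall was 2.96-fold (log2 −1.56, SE 0.123, adjusted p = 1.83e-12 by edgeR), and 3.14-fold in the mice without Msh3.

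AI197445 and Gm36737 are isolated lincRNAs, 447696 and 450725 bases from the nearest protein-coding gene. AI197445 (chr13:107469822-107482718, plus strand) was at 3.51, 4.56 and 7.53 CPM in wild-type and 1.47, 2.05 and 2.3 CPM in zQ175 mice, again as lowest, median and highest. Gm36737 (chr7:136167086-136173296, minus strand) was at 2.02, 3 and 3.94 CPM and at 0.882, 1.35 and 1.57 CPM. Both separated the genotypes completely. AI197445 fell 2.5-fold (log2 −1.32, SE 0.136, adjusted p = 1.2e-09 by edgeR) and Gm36737 2.48-fold (log2 −1.31, SE 0.142, adjusted p = 3.78e-09). In the mice without Msh3 the log2 changes were −1.0 and −1.15.

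The other falls with the smallest adjusted p were of lincRNAs close to a protein-coding gene. Gm26645 starts 1940 bases from Gli3, a transcription factor of Hedgehog signalling, and reads away from it. It went from 5.51, 6.46 and 7.5 CPM to 2.65, 3.2 and 4.3 CPM (log2 −0.95, SE 0.128, adjusted p = 3.68e-07 by edgeR). Gm38101, 901 bases from the start of Pld5, went from 2.5, 3.74 and 4.39 CPM to 1.34, 1.76 and 2.4 CPM (log2 −0.94, SE 0.137, adjusted p = 1.54e-06 by edgeR). Gm43672 lies 510 bases from the start of Tbl1xr1, a subunit of a transcriptional corepressor. Its levels were 4.64, 5.88 and 7.47 CPM in wild-type and 2.6, 3.68 and 4.01 CPM in zQ175 mice (log2 −0.71, SE 0.109, adjusted p = 3.78e-06 by edgeR). In each of these the highest zQ175 mouse was below the lowest wild-type mouse, by little for Gm38101. In the mice without Msh3 the groups overlapped for Gm26645 and Gm43672, with log2 changes of −0.92 and −0.51, and did not for Gm38101, at −0.85.

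A pair of lincRNAs at Rasgef1b, a gene for a guanine nucleotide exchange factor, fell together with it. Gm35394 overlaps Rasgef1b on the other strand and went from 3.1, 3.58 and 4.39 CPM to 1.49, 2.24 and 2.54 CPM (log2 −0.77, SE 0.105, adjusted p = 4.56e-07 by edgeR). Gm38413, 1789 bases upstream and named here after its value was seen, had a log2 change of −0.65 (adjusted p = 4.88e-06), and Rasgef1b itself of −0.60 (adjusted p = 5.68e-10). Among abundant lincRNAs, Dbpht2, chosen after its values were seen, went from 65.4, 81.1 and 100.1 CPM to 55.8, 58.5 and 66.6 CPM (log2 −0.45, adjusted p = 9.75e-06 by edgeR), with a slight overlap.

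A few lincRNAs, of which 4833415N18Rik and 3222401L13Rik were named after their values were seen, show how the pairs with and without Msh3 compared. 4833415N18Rik, at 5.43, 6.81 and 8.35 CPM in wild-type and 2.99, 3.98 and 5.11 CPM in zQ175 mice, fell by 0.72 and, without Msh3, by 0.75 (adjusted p = 8.55e-06 and 6.28e-06 by edgeR), with no overlap in either pair. 3222401L13Rik fell by 0.61 with Msh3 (adjusted p = 0.000492 by edgeR) and differed by −0.13 without it (adjusted p = 0.537). 5930430L01Rik went the other way, at 0.16 with Msh3 (adjusted p = 0.485 by edgeR) and a rise of 0.69 without it (adjusted p = 0.000976). For neither of the last pair of genes did the test of the difference between the effects pass, with interaction p of 0.0133 and 0.0214 before and 0.999 after adjustment by edgeR.

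**Figure D2:**
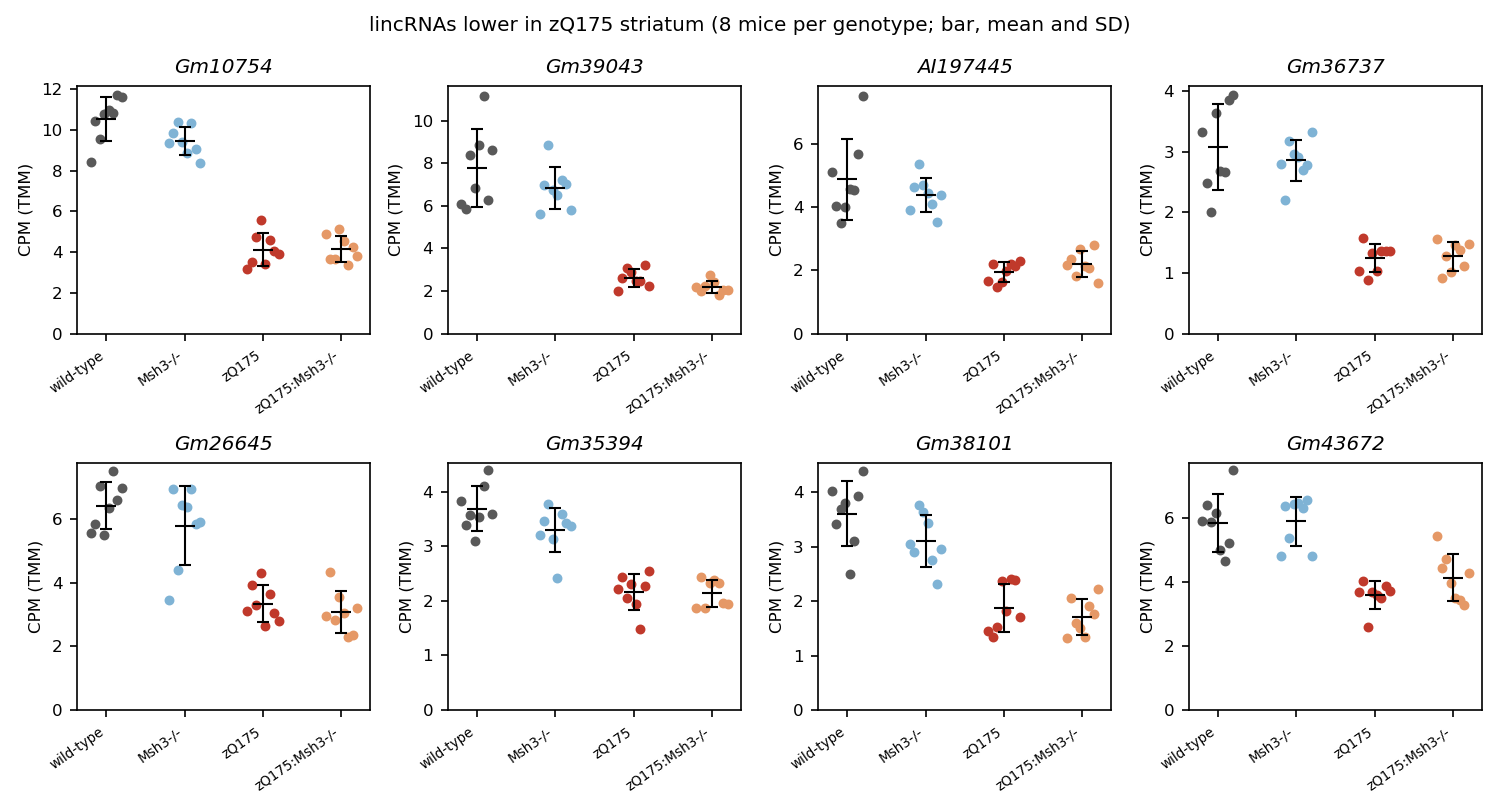
Levels in CPM with TMM scaling (linear axes from 0) of the 8 lincRNAs that fell with the smallest adjusted p, 1 point per mouse, 8 mice per genotype, with the mean and SD. In every panel all zQ175 points lie below all wild-type points, while in zQ175:Msh3-/- mice Gm26645, Gm35394 and Gm43672 overlap the Msh3-/- mice.

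The falls took place in tissue whose spiny neuron messenger RNAs were also lower. The summed level of 5 measured markers of indirect pathway neurons (the sixth, Gpr52, was not in the table) had a median of 2040 CPM in wild-type and 943 CPM in zQ175 mice, with 4 of 5 called lower. That of 6 markers shared by all spiny neurons was 8550 and 4800 CPM, with 6 of 6 lower, and that of 6 direct pathway markers 599 and 474 CPM, with 3 of 6 lower. No defining marker was at 0. Among other cell types, the summed astrocyte markers went from 1560 to 1400 CPM and the endothelial markers from 215 to 179 CPM, with 0 of 6 and 2 of 6 called. The microglia markers went from 389 to 362 CPM and the oligodendrocyte markers from 9800 to 8980 CPM, with 0 of 6 and 1 of 6 called. As sums, the astrocyte, endothelial and microglia markers were lower in zQ175 mice (exact permutation p = 0.000466, 0.000155 and 0.0107, unadjusted). The endothelial sums did not overlap, at 202 to 228 CPM in wild-type and 144 to 201 CPM in zQ175 mice. The oligodendrocyte sum did not pass (exact permutation p = 0.173). The part of these shifts in the lincRNA changes was not tested, and in whole tissue a loss of cells of a type and less RNA per cell cannot be told apart.

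Among the lincRNAs that rose, Gm9866 had the smallest adjusted p. It is a gene of 13 exon blocks (ENSMUSG00000094002, chr12:27050950-27160633, minus strand) that lies 173631 bases downstream of Sox11, a transcription factor of immature neurons. Wild-type mice had 17.5, 19.4 and 24.1 CPM and zQ175 mice 26.2, 27.7 and 30.4 CPM, and the mice without Msh3 had 17.9, 20.5 and 22 CPM and 23.5, 28.2 and 31.1 CPM. The genotypes did not overlap in either pair. The rise was 1.41-fold (log2 0.49, SE 0.0625, adjusted p = 1.05e-07 by edgeR) and 1.37-fold without Msh3. Sox11 rose as well, by 0.68 (adjusted p = 3.27e-07 by edgeR).

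A group of 3 lincRNAs lies between Rhof and Setd1b, a histone H3 lysine 4 methyltransferase gene, within chr5:123133723-123141666. AI480526, on the minus strand, spans the other two, so that their counts may share reads. 4932422M17Rik was at 11.4, 12.2 and 13.6 CPM in wild-type and 12.2, 15.6 and 19.1 CPM in zQ175 mice, a rise of 0.35 with some overlap (SE 0.069, adjusted p = 0.00018 by edgeR). AI480526 went from 6.16, 6.93 and 7.49 CPM to 7.78, 8.76 and 10.4 CPM with no overlap, a rise of 0.39 (SE 0.0864, adjusted p = 0.000618 by edgeR). Gm38102 differed by 0.25 (adjusted p = 0.00656 by edgeR), 1.19-fold and so below the fold threshold. In the mice without Msh3 all 3 rose, by 0.68, 0.42 and 0.54. Setd1b differed by 0.16 (adjusted p = 0.109) and Rhof by 0.16 (adjusted p = 0.0371), and neither was called.

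Miat, an RNA of nuclear bodies in neurons that is also called Gomafu, had the largest rise of the 198 by edgeR in zQ175 against wild-type mice. It is at chr5:112213228-112229395 on the minus strand, and its lowest, median and highest levels were 64.2, 93.6 and 116 CPM in wild-type and 108, 144 and 162 CPM in zQ175 mice. In Msh3-/- mice they were 63.4, 97 and 134 CPM, and in zQ175:Msh3-/- mice 106, 136 and 214 CPM, so that the groups overlapped in both pairs. The log2 change was 0.64 (SE 0.156, adjusted p = 0.0024 by edgeR), 1.56-fold, and 0.59 without Msh3 (adjusted p = 0.00575 by edgeR). In males alone the first change was 0.43 (adjusted p = 0.323 by edgeR) and in females alone 0.88 (adjusted p = 0.00731). Without Msh3 the order was the opposite, at 0.71 in males (adjusted p = 0.0635 by edgeR) and 0.45 in females (adjusted p = 0.213), and the difference between the sexes was not tested.

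Miat varied from mouse to mouse with the summed level of cortical neuron markers in the dissected tissue. The summed CPM of 6 markers of cortical excitatory neurons varied from 49.6 to 326 among wild-type, 50.7 to 486 among Msh3-/-, 39.5 to 416 among zQ175 and 138 to 697 among zQ175:Msh3-/- mice, with medians of 206, 226, 283 and 343. Between zQ175 and wild-type mice the 6 markers had a median log2 fold change of 0.61, beside 0.64 for Miat, while none of them was called and the summed level did not pass a test (exact permutation p = 0.246, 8 against 8 mice). None was at 0. Within each genotype of 8 mice Miat was higher where that sum was higher. This relation was not among the planned tests, and adjustment over 12 relations does not cover the choice of Miat and of this marker list. In wild-type mice Pearson's r was 0.911 and Spearman's rho 0.905 (exact permutation p = 0.0075 and 0.00912 after adjustment over a family of 12), in zQ175 mice 0.928 and 0.905 (exact permutation p = 0.00744 and 0.00912), in zQ175:Msh3-/- mice 0.917 and 0.905 (exact permutation p = 0.0075 and 0.00912), and in Msh3-/- mice 0.764 and 0.81 (exact permutation p = 0.0329 and 0.0327). Without the 2 mice farthest from the median marker sum, r was 0.917, 0.844, 0.881 and 0.775 in the same order. The difference between genotypes was smaller but still called with the log2 marker sum in the model, an analysis chosen after seeing the data, at 0.50 (SE 0.0874, adjusted p = 6.28e-05 by edgeR) and 0.40 without Msh3 (SE 0.0892, adjusted p = 0.00136).

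**Figure D3:**
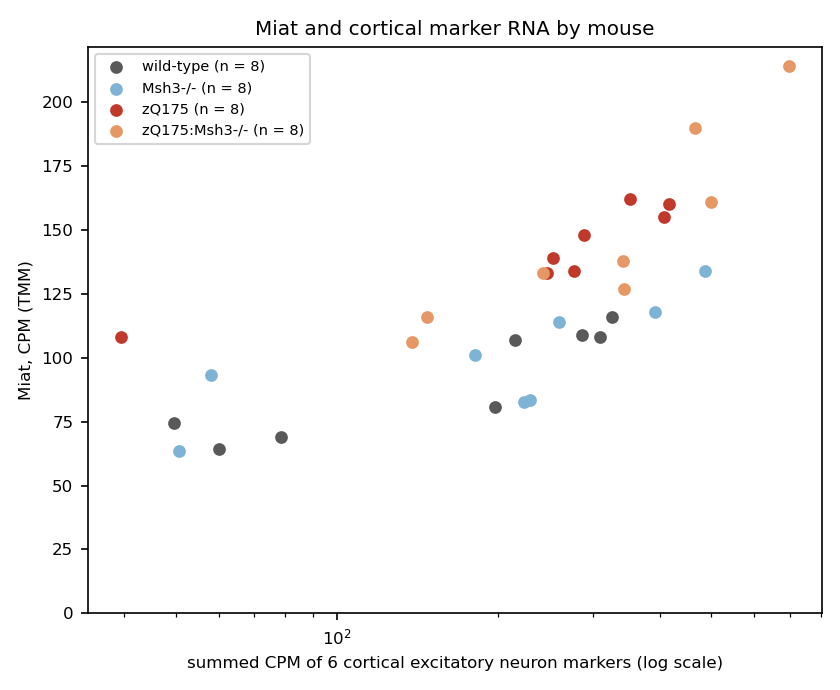
Miat in CPM (linear axis from 0) against the summed CPM of 6 cortical excitatory neuron markers (log axis) in 32 mice, 8 per genotype. Within each genotype Miat rises with the marker sum, with r between 0.764 and 0.928, and at similar sums the mice with the zQ175 repeat mostly lie above those without it.

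Of the other rises chosen by rule, 3 each carried a limit. A330049N07Rik, 12637 bases from the start of Pcdh15, a cadherin-like adhesion gene, went from 2.12, 2.4 and 2.8 CPM to 2.27, 3.77 and 5.19 CPM. This was a rise of 0.63 (SE 0.162, adjusted p = 0.00334 by edgeR), and Pcdh15 rose by 0.32. In the mice without Msh3 the A330049N07Rik change was 0.51 (adjusted p = 0.0225 by edgeR) and was no longer called without Msh3-/- male 4, Msh3-/- female 3 or zQ175:Msh3-/- male 3, with a lowest value of 0.34. D930016D06Rik went from 12, 12.8 and 14.7 CPM to 12.9, 16.1 and 17.9 CPM, a rise of 0.27 (adjusted p = 0.00369 by edgeR) that lay at the fold threshold and fell below it when any of 7 mice was left out. Without Msh3 its difference was 0.23 (adjusted p = 0.0174 by edgeR), which at 1.17-fold was not called. Gm42418 went from 35.2, 42 and 54.8 CPM to 42.3, 62.2 and 82.4 CPM, a rise of 0.50 (SE 0.113, adjusted p = 0.00115 by edgeR), and by 0.61 without Msh3. It overlaps Rn18s-rs5, which RefSeq annotates as an 18S ribosomal RNA-related sequence, by 1245 bases, so that its counts and ribosomal RNA reads may not have been told apart. Its neighbour Gm26917, named after its values were seen, differed by 0.54 with a much larger spread (SE 0.265, adjusted p = 0.14 by edgeR).

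The Dlk1-Dio3 locus on chromosome 12, where noncoding RNAs are made from the maternal chromosome, gave 3 of the 198 lincRNAs, and all were higher in zQ175 mice, though not all passed both thresholds. Mirg, the host of a large miRNA cluster, was at 16.2, 21.4 and 23.5 CPM in wild-type and 21, 26 and 30.9 CPM in zQ175 mice, a rise of 0.38 with partial overlap (SE 0.0779, adjusted p = 0.000335 by edgeR). Meg3 was at 2875, 3367 and 3653 CPM in wild-type and 3445, 3905 and 4634 CPM in zQ175 mice, a difference of 0.25 (SE 0.0553, adjusted p = 0.000601 by edgeR). At 1.19-fold this was just below the fold threshold. In the mice without Msh3 it was 2822, 3228 and 3613 CPM against 3483, 3951 and 4164 CPM, and at 0.27, or 1.21-fold, it was called (adjusted p = 0.000277 by edgeR). Whether Meg3 passed the fold threshold changed with 7 of the mice left out in the first comparison and 3 in the second, while its adjusted p was at most 0.00199 in the first and 0.000928 in the second. Gm26945, which lies between them, overlaps Rian and was named after its values were seen, differed by 0.45 (adjusted p = 0.0299 by edgeR) and by 0.32 without Msh3 (adjusted p = 0.131), where Mirg differed by 0.25 (adjusted p = 0.0181), 1.19-fold. The first of these calls was lost in 5 of the 32 fits, and the uncalled Mirg difference was called in 4 of them. Rtl1, the protein-coding gene of the same locus that is made from the paternal chromosome, differed by −0.21 (adjusted p = 0.256 by edgeR).

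**Figure D4:**
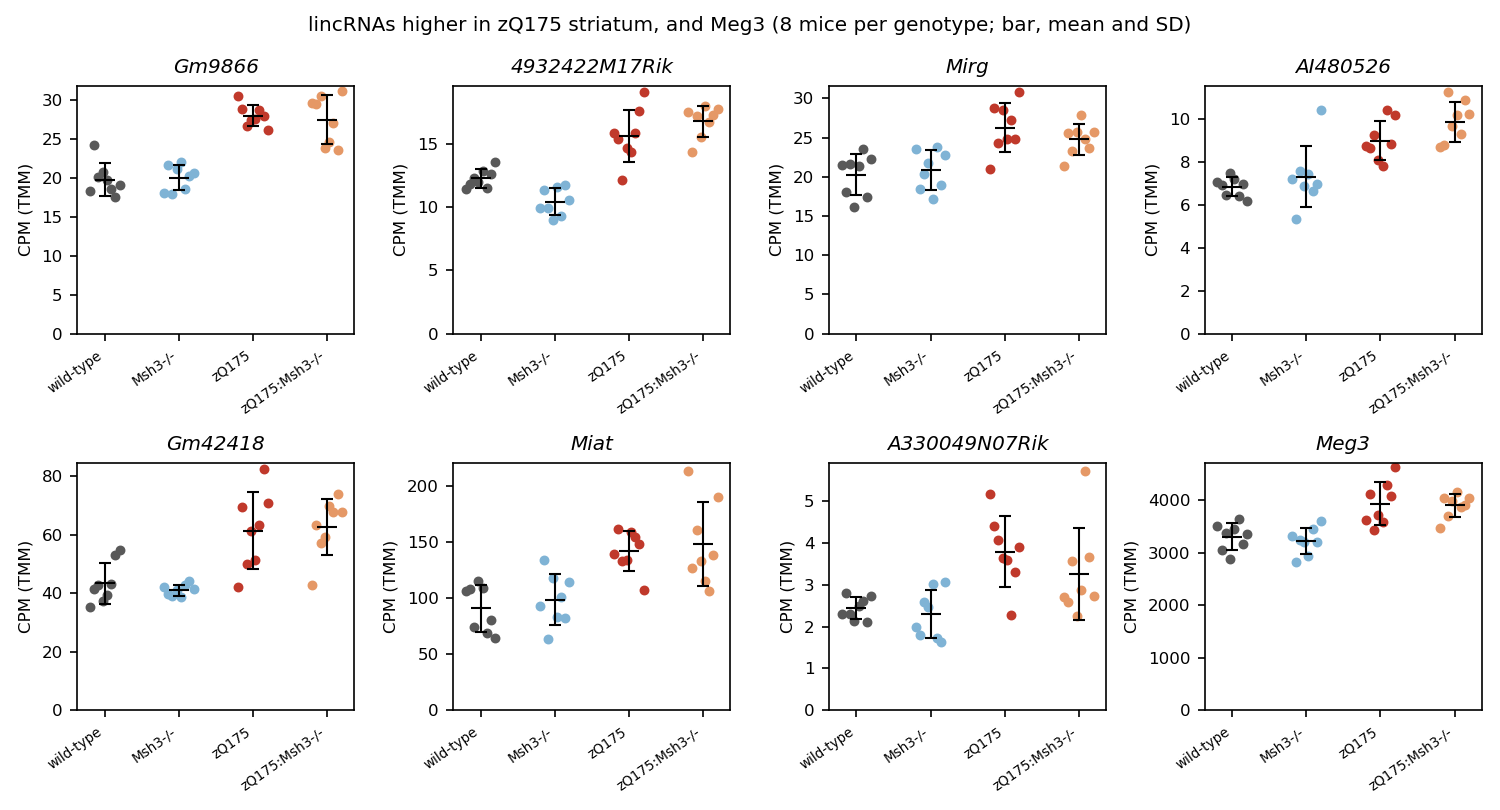
Levels in CPM with TMM scaling (linear axes from 0) of 7 lincRNAs that rose and of Meg3, 1 point per mouse, 8 mice per genotype, with the mean and SD. Gm9866 and AI480526 separate zQ175 from wild-type mice completely, while the other panels overlap.

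Of 3 nuclear-retained RNAs, Malat1, Neat1 and Miat, only Miat was called in zQ175 against wild-type mice. Malat1 had a median of 2070 CPM in wild-type and 1945 CPM in zQ175 mice, a difference of −0.23 with a 95% interval from −0.60 to 0.15 (adjusted p = 0.421 by edgeR). Neat1 had 194, 224 and 232 CPM in wild-type and 164, 202 and 253 CPM in zQ175 mice, a difference of −0.14 with an interval from −0.37 to 0.08 (adjusted p = 0.386 by edgeR). The intervals leave room for falls of over 1.2-fold in both. By contrast the interval of 2900097C17Rik ran only from −0.08 to 0.07 around −0.01, and that of the abundant Tmem250-ps from −0.04 to 0.07 around 0.01. For 1700020I14Rik the difference was 0.02, from −0.10 to 0.14.

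Of 20 symbols of characterised lincRNAs on a second list, 6 were matched by symbol among the 198, and none was called in zQ175 against wild-type mice. The list named NORAD by both of its symbols, while 1700020I14Rik, the Cyrano RNA, was listed under another symbol and so was not matched. Of the 6, 2 passed the adjusted p alone. Pantr1, transcribed away from the neuronal transcription factor gene Pou3f3 and 926 bases from it, went from 20.3, 21.8 and 26.6 CPM to 17.6, 19.3 and 20.2 CPM, so that no zQ175 mouse reached a wild-type mouse, yet at 1.19-fold (log2 −0.25, SE 0.0587, adjusted p = 0.00129 by edgeR) it missed the fold threshold, which it passed in 4 of the 32 fits that left out 1 mouse. In the mice without Msh3 it differed by −0.17. Pou3f3 fell by 0.26 on the log2 scale (adjusted p = 7.85e-06 by edgeR). Mir9-3hg differed by 0.22 (adjusted p = 0.0332 by edgeR). Pvt1, downstream of Myc, differed by 0.13 (adjusted p = 0.243), and C130071C03Rik and Mir124a-1hg by 0.07 and −0.02 (adjusted p = 0.336 and 0.848). None of 5 RNAs on a list of other imprinted loci was among the 198.

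Of the 17 hosts of miRNAs, Mirg was called higher, Gm37233 lower and 15 were not called in zQ175 against wild-type mice, beside the 11.6% of all genes called, and in the mice without Msh3 1 was higher and 16 were not called. The mature miRNAs themselves were not measured here. The hosts of miR-9-5p differed by 0.07 (C130071C03Rik), 0.03 (Gm3764) and 0.22 (Mir9-3hg), and those of miR-129-5p by 0.23 (Gm3294, adjusted p = 0.141 by edgeR) and 0.25 (Mir670hg, adjusted p = 0.141). C78859, the host of miR-138-5p, went from 53.8, 67.5 and 75 CPM to 45.5, 52.7 and 68.3 CPM, which at 1.19-fold (log2 −0.25, adjusted p = 0.0106 by edgeR) was under the fold threshold. The let-7 host 6720427I07Rik differed by −0.07 with an interval from −0.32 to 0.18. The miR-124 hosts Mir124a-1hg and Mir124-2hg differed by −0.02 and 0.14. By annotation 7 of the 198 hold a snoRNA gene, of which Gm10754 was called lower in both pairs, Gm26945 higher in the mice with Msh3, and 5 were not called in zQ175 against wild-type mice. Of a list of 21 known snoRNA hosts 4 were among the 198, and none of those 4 was called. Snhg12 was higher by 0.23 (adjusted p = 0.00176 by edgeR), 1.18-fold, while Snhg20, Snhg6 and Epb41l4aos differed by 0.06, −0.07 and 0.12. Gm3764, Gm3294, Mir670hg, C78859, 6720427I07Rik and Mir124-2hg were named for the miRNA they hold, and Gm37233 and Gm26945 because they were called, after their values were seen.

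The changes of a lincRNA and of its nearest protein-coding gene correlated most in overlapping pairs and least in the pairs farthest apart. Differences between these correlations were not tested. For 37 lincRNAs that overlap their neighbour the log2 changes of the pair in zQ175 against wild-type mice correlated with Pearson's r = 0.824 across pairs, for 63 that lie 1 to 5000 bases away with r = 0.462, and for 67 farther away with r = 0.158. These values describe pairs of genes, which are not independent, come from the same libraries and, where the genes overlap, may share reads. Of the called lincRNAs within 5000 bases, 22 had a neighbour abundant enough to be tested, which the neighbours of C230057M02Rik and 3222401L13Rik were not. Of these 22, 8 had a neighbour called in the same direction, none had one called in the opposite direction and 14 had one that was not called. Another 17 called lincRNAs lie farther away and had a neighbour that was tested, which the neighbours of Dbpht2, Gm42418 and 2410018L13Rik were not. Of these 17, 4 had a neighbour called in the same direction, 1 in the opposite direction and 12 one that was not called. Of all genes 11.6% were called. Gm26580, which overlaps the potassium channel gene Kcnq5 and was named after its values were seen, fell by 0.66 beside a fall of 0.46 in Kcnq5. Gm43672 stood at −0.71 beside −0.14 for Tbl1xr1. Of the 23 lincRNAs that fell, 14 lay within 5000 bases of a coding gene, as did 10 of the 21 that rose and 88 of the 154 that were not called. The 23 had a median of 2 exon blocks and 2500 bases, the 21 a median of 6 exon blocks and 3375 bases, and those not called 3 exon blocks and 3218.5 bases.

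**Figure D5:**
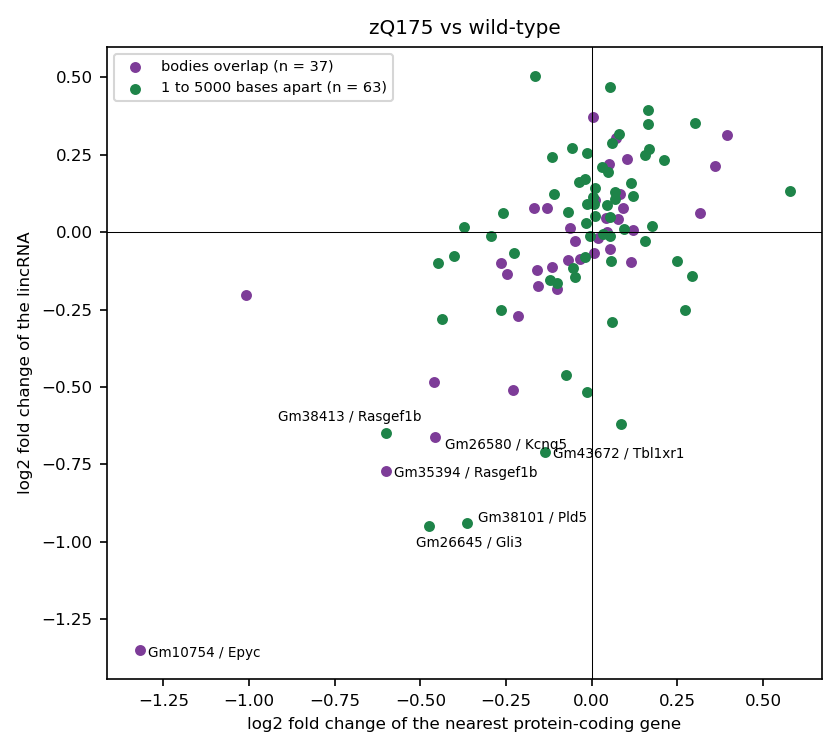
Log2 fold changes in zQ175 against wild-type mice of 100 lincRNAs (vertical) and of the nearest protein-coding gene (horizontal), for 37 pairs whose bodies overlap and 63 pairs 1 to 5000 bases apart. The labelled falls sit in the lower left with their neighbours, from Gm10754 with Epyc at −1.35 and −1.32 to Gm43672 at −0.71 with Tbl1xr1 at −0.14.

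Loss of Msh3 in zQ175 mice left every one of the 198 lincRNAs uncalled. Between zQ175:Msh3-/- and zQ175 mice 0 were called by edgeR and 0 by DESeq2, where 1 gene in all, or 0.00602%, was called by edgeR. At an unadjusted p under 0.05 there were 4 by edgeR (2.02%, against 3.7% of all genes) and 2 by DESeq2, and the smallest adjusted p was 0.999. The log2 differences ran from −0.32 to 0.39 with a median of 0.01, 108 of them above 0. The 3 with the smallest p were Gm32618 at −0.29, Gm26896 at 0.31 and 5930430L01Rik at 0.33 (unadjusted p = 0.0289, 0.0325 and 0.0365 by edgeR), all at about 2 CPM. For the lincRNAs with the deepest falls the difference between zQ175:Msh3-/- and zQ175 mice was 0.01 for Gm10754 (95% interval from −0.19 to 0.21), −0.27 for Gm39043 (SE 0.136, unadjusted p = 0.0573), 0.17 for AI197445 (from −0.11 to 0.46) and 0.07 for Gm36737 (from −0.24 to 0.37). For Gm10754, AI197445 and Gm36737 the upper bound was far below the size of the fall, and Gm39043 was lower still. For Miat it was 0.06 (from −0.24 to 0.36), and for Gm9866 −0.02 (from −0.14 to 0.10).

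In mice without the repeat, Msh3 loss also left 0 of the 198 called by edgeR and 0 by DESeq2, with 0.00602% of all genes called by edgeR. At an unadjusted p under 0.05 there were 12 lincRNAs by edgeR (6.06%, against 5.09% of all genes) and 11 by DESeq2, and the smallest adjusted p was 0.662. The smallest p values were those of Gm21781 at −0.25, Gm45250 at −0.34 and 4932422M17Rik at −0.23 (unadjusted p = 0.000633, 0.00117 and 0.00298 by edgeR). An exact two-sided permutation test over the 8 and 8 mice gave 0.00124, 0.000311 and 0.00155 for them, and 0.00574, 0.00196 and 0.00654 after adjustment over 240 tests of named genes, which does not cover their choice as the smallest of 198. Gm21781 was at 18.3, 20.5 and 23.5 CPM in wild-type and 15.7, 17.2 and 19.8 CPM in Msh3-/- mice, with the groups overlapping. Over the lincRNAs the median was −0.05, with 62 above 0, against a median of 0.00 over all genes.

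The zQ175 effect was then set against itself with and without Msh3. In this interaction test 0 of the 198 and 0.0% of all genes passed an adjusted p of 0.05 by edgeR, and 0 by DESeq2, with 10 lincRNAs at an unadjusted p under 0.05 by edgeR and 9 by DESeq2, where 4.44% of all genes were. The median log2 interaction was 0.05 over the lincRNAs and 0.004 over all genes. The smallest p values were those of 4932422M17Rik, at 0.34, Gm38102, at 0.29, and Gm21781, at 0.25 (unadjusted p = 0.00164, 0.00552 and 0.011 by edgeR, adjusted p = 0.999 for each). The first of them was at 8.99, 10.3 and 11.7 CPM in Msh3-/- and 14.4, 17.2 and 18 CPM in zQ175:Msh3-/- mice. The mice with Msh3 differed by less in the same gene, but with these adjusted p-values a difference between the effects was not resolved.

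Summed over the 198 genes, lincRNAs took 0.945% ± 0.0667 (SD, n = 8) of the counted reads in wild-type, 0.911% ± 0.0809 for Msh3-/-, 1.03% ± 0.0999 for zQ175 and 1.03% ± 0.0588 for zQ175:Msh3-/- mice. Meg3 alone went from 0.322% ± 0.0232 in wild-type to 0.402% ± 0.0422 in zQ175 mice (exact two-sided permutation test, p = 0.000155, adjusted p = 0.000518 over 5 comparisons), and from 0.316% ± 0.0266 to 0.399% ± 0.0241 without Msh3. All these shares are of raw counts, without TMM scaling. With that scaling the Meg3 levels of zQ175 and wild-type mice overlapped, with a log2 difference of 0.25. For this pair an exact permutation test of Meg3 log2 CPM gave p = 0.00155, and 0.00654 after adjustment over 240 tests. Without Msh3 the exact permutation test gave p = 0.000311 for both the share and log2 CPM. Without Meg3 the sums were 0.623% ± 0.0601 and 0.624% ± 0.0665 in wild-type and zQ175 mice, and without Malat1 and 2900097C17Rik as well they were 0.255% ± 0.00545 and 0.272% ± 0.0119.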

How the data were processed

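Striatal RNA of 32 mice was sequenced in pairs of reads. Per the labels the reads were set against GRCm38 (p6). The aligner, the counting tool and its strand setting are not given in the sources used here. The authors deposited a table of raw counts per gene, and a second table, named as FPKM, whose columns each sum to 1000000 and which was therefore treated as TPM. Both hold 32 columns, each matched by its name to 1 mouse, with 0 left out. GENCODE M21 gave gene types and exons, and RefSeq the sequences.

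Counts were tested with edgeR 4.0.16 in R 4.3.3 (TMM, filterByExpr, robust quasi-likelihood F test, 1 model of 4 genotypes), with Benjamini-Hochberg adjustment over the 16610 genes of 54532 that passed the filter, which all 198 lincRNAs did. Calls needed an adjusted p under 0.05 and a fold of at least 1.2, and the interaction an adjusted p alone. The SE was the log2 fold change over the square root of F, and 95% intervals spanned 1.96 SE either side. Two-sided exact permutation tests of log2 CPM (prior count 2) used all 12870 arrangements of 8 against 8 mice, with 240 tests for 48 named genes adjusted together. Distances to neighbours ran from gene body to gene body. Depth bounds precision as given by the SE of each gene, and p-values cover the spread between separate mice. Python 3.11.15, numpy 2.4.6, pandas 2.3.3, scipy 1.17.1 and matplotlib 3.10.9 did the rest. The edgeR step was tested on simulated data.

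The lincRNAs and lists were chosen with earlier results of these data known. Genes are named by rule: the 8 called in each direction with the smallest adjusted p in zQ175 against wild-type mice, the 8 with the highest mean CPM, the 3 with the smallest p in each comparison of Msh3 loss, members of the lists (imprinted, nuclear-retained, snoRNA host, characterised), and the nearest on either side of the level of 2 CPM. Others are marked as chosen afterwards or for the small RNA they hold. Alternatives were DESeq2 1.42.0, RLE scaling, a library size without the lincRNAs, no filter, sex or a replicate block in the model, only the groups compared, limma 3.58.1 on log2(TPM + 0.1) or log2(TPM + 1), fold thresholds of 1.5 or none, each sex alone, each mouse left out, levels of 1 or 5 CPM, lincRNAs that overlap no other gene, and, added after seeing the data, marker sums of cortical neurons or choroid plexus in the model. Mice with the same sex and number did not deviate together, with correlations from −0.192 to 0.259, so the numbers were not treated as pairs. No 2 mice of a genotype agreed within counting noise, the smallest chi-square per degree of freedom being 4.26.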

Additional observations from a re-analysis of the deposited data

Results flagged for a closer look

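In 9 of 196 sets of 8 mice, those of the 48 named lincRNAs and of the lincRNA share of reads in each genotype, the mouse at one end lay apart from the other 7 by more of the range than Dixon's 95% critical value for 8 values, where chance alone would give about 9.8. The gaps are shares of the range on the log2 CPM scale, with a prior count of 2, while the levels beside them are in CPM, so that a gap cannot be worked out from the CPM and on the CPM scale some would fall under the critical value. Gm47204, with a single exon block, gave 3 of these. Its lowest Msh3-/- mouse was at 3.66 CPM with the others from 5.78 to 7.84 CPM (gap 0.597 of the range). For the same gene zQ175 female 2 and zQ175:Msh3-/- male 4 were both at 0 (gaps 0.592 and 0.699). Among lincRNAs that were called, the lowest zQ175:Msh3-/- mouse for Gm42418 had 42.9 CPM with the others from 57.3 to 73.9 CPM (0.53), and the lowest zQ175 mouse for Miat had 108 CPM with the others from 133 to 162 CPM (0.527). The lowest zQ175 mouse for Gm43672 had 2.6 CPM with the others from 3.5 to 4.01 CPM (0.687), and the lowest Msh3-/- mouse for Gm35394 had 2.41 CPM with the others from 3.13 to 3.76 CPM (0.588). For Dbpht2 the highest Msh3-/- mouse had 90.9 CPM with the others from 75.5 to 80.5 CPM (0.658), and for Snhg6 the lowest wild-type mouse had 6.07 CPM with the others from 7.64 to 9.36 CPM (0.532).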

How the results depend on the processing

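The counts of 44 lincRNAs in both zQ175 comparisons stayed within 1.5 times under most alternatives, and leaving out each mouse gave 41 to 47 in zQ175 against wild-type, 41 to 48 in zQ175:Msh3-/- against Msh3-/- and 36 to 43 in zQ175:Msh3-/- against wild-type mice, and 0 in both comparisons of Msh3 loss and in the interaction. The replicate block gave 43, 44 and 36, DESeq2 41, 41 and 40. Males alone gave 29 and females alone 29 in the first comparison, females alone 18 in the second and males alone 26 in the third, with fewer mice. A fold of at least 1.5 left 14 (2 higher and 12 lower), 16 (4 and 12) and 12 (2 and 10), so that rises made up 14.3%, 25.0% and 16.7%. Of 103 lincRNAs at 5 CPM or more, 21, 23 and 22 were called, and of 81 that overlap no other gene 20, 21 and 19. Limma on TPM raised the share of rises to 64.0% in the first comparison and to 69.6% from 54.5% in the second and to 68.8% from 48.8% in the third, while males alone gave 34.5% and females alone 41.4% in the first, females alone 33.3% and males alone 48.8% in the second, and females alone 37.9% and males alone 46.2% in the third, and the cause was not tested. Medians over all genes by limma were also higher, at 0.0674, 0.087 and 0.0886, against 0.0116, 0.0143 and 0.0144 by edgeR. The median log2 fold change of the first comparison ranged from −0.02 to 0.08.

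The difference in the lincRNA share of reads without Meg3 was 0.0362 percentage points between zQ175:Msh3-/- and Msh3-/- mice, from 0.119, and 0.00859 against wild-type mice, from 0.0858, since Meg3 carries most of it. Leaving out each mouse gave 0.104 to 0.139 and 0.0744 to 0.0998 for these, 0.0609 to 0.0982 for zQ175 against wild-type, −0.0124 to 0.0249 for zQ175:Msh3-/- against zQ175 and −0.0536 to −0.0181 for Msh3-/- against wild-type mice.

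Among the 48 named lincRNAs, the log2 differences that changed sign were all of lincRNAs not called there. Against Msh3-/- mice, in zQ175:Msh3-/- mice, Malat1 went to 0.0054 with sex in the model, 0.0348 with the block, 0.094 in males and 0.0049 by limma, Neat1 to 0.0519 and 0.0083 with the cortical and choroid marker sums, 0.2326 in males and 0.0246 or 0.0247 by limma, 2900097C17Rik to 0.0095 in females and 0.0469 by limma, and Gm32618 to 0.0536 in males and 0.0138 or 0.0109 by limma. In the same pair females alone gave −0.0808 for Gm3764, −0.0083 for Gm3294 and −0.1166 for Mir670hg. In zQ175 against wild-type mice females alone gave 0.0134 for 2900097C17Rik, −0.0403 for 5930430L01Rik, −0.1596 for Gm45250, −0.0459 for Gm3764 and −0.0086 for Mir670hg. Males alone gave −0.0255 for 1700020I14Rik, 0.0038 for Mir124a-1hg and −0.0093 for Tmem250-ps. Limma gave 0.0497 or 0.0496 for 2900097C17Rik and 0.0311 or 0.0307 for Mir124a-1hg, and the cortical sum gave −0.0518 for 1700020I14Rik. The cause of these was not tested. The median lincRNA had 87.6 reads per mouse.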

Other observations

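A pair of other lincRNAs was set against the summed cortical neuron markers. They were picked after seeing the data, a choice that adjustment over 12 relations does not cover, and the relation did not pass in every genotype. For 1700020I14Rik, the Cyrano RNA, Pearson's r within genotypes of 8 mice was 0.719 for wild-type, 0.843 for Msh3-/-, 0.866 for zQ175 and 0.894 for zQ175:Msh3-/- mice, with Spearman's rho of 0.595, 0.905, 0.976 and 0.929 (exact permutation p adjusted over 12 relations, for r, of 0.0664, 0.0174, 0.000893 and 0.00857, and for rho of 0.132, 0.00912, 0.00476 and 0.00912). Without the 2 mice farthest from the median sum, r was 0.486, 0.931, 0.977 and 0.939. For C230057M02Rik r was 0.868, 0.902, 0.635 and 0.811 in the same order and rho 0.833, 0.762, 0.643 and 0.69 (exact permutation p, adjusted, for r of 0.00878, 0.0143, 0.102 and 0.0211, and for rho of 0.0264, 0.0491, 0.105 and 0.0833). Without those 2 mice r was 0.62, 0.3, 0.818 and 0.0752, so the relation in Msh3-/- and zQ175:Msh3-/- mice rested on them.

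With the cortical marker sum in the model, also chosen after seeing the data, 46 lincRNAs were called in zQ175 against wild-type mice, of which 42 were among the 44. Gm49654 and Gm46378 were lost, and Meg3, Gm45768, 1700063D05Rik and Dalir were gained. Gm49654 was lost by its size, since its log2 change went from 0.35 to 0.25, under the 1.2-fold line, while its adjusted p by edgeR went from 0.00967 to 0.00911. In zQ175:Msh3-/- against Msh3-/- mice 45 were called with that sum, 41 of them shared. Gm35040, 2900079G21Rik and Gm38910 were lost, and Mirg, Gm17275, D730003I15Rik and C130026L21Rik were gained. With the sum of choroid plexus and ependyma markers in its place, 44 were called in zQ175 against wild-type mice, 43 of them shared.

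Gm47204 had the highest biological coefficient of variation of the 198 lincRNAs, 0.699, against 0.446 for Gm45159 and 0.116 for the median. It was the single lincRNA with 0 reads in any mouse, and 3 other mice had 17, 28 and 35 reads.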
